A study of Homo sapiens with 2 samples.

Results

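The levels of 10 transcription and splicing regulators known for holding cells in the epithelial state were followed in an RNA comparison of 2 sequencing platforms. The 10 genes are GRHL1, GRHL2, GRHL3, OVOL1, OVOL2, ESRP1, ESRP2, ELF3, KLF4 and KLF5, and they were chosen by name. Each symbol in GENCODE release 44 was matched by Ensembl identifier to the rows of both count tables, and all 10 were found among the 58735 genes listed. The RNA came from MCF10a-Snail-ER cells, a derivative of the non-tumorigenic human breast epithelial line MCF10a that stably carries the repressor Snail fused to the estrogen receptor. Both libraries were made from polyadenylated RNA of cells given 100 nM tamoxifen for 1 day, which starts an epithelial-to-mesenchymal transition (EMT). One library was read by Oxford Nanopore direct RNA sequencing, which reads native RNA strands, and the other by Illumina sequencing of amplified cDNA fragments from a TruSeq stranded kit. Each platform had a single library and untreated cells were not analysed here, so nothing below is a response to tamoxifen. Every interval and test covers counting error in these 2 libraries only.

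Grainyhead-like factors (GRHL) are DNA-binding proteins that keep cadherin and claudin genes active in epithelia. OVOL factors are zinc finger repressors known to silence ZEB1, and ESRP proteins bind RNA and promote the epithelial forms of spliced transcripts such as those of FGFR2 and CD44. ELF3 is an ETS factor of epithelia, and KLF4 and KLF5 are Krüppel-like zinc finger factors of stratified and glandular epithelium. Snail, ZEB and TWIST proteins act against this set by repressing epithelial genes.

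In total, 403235 counts came from Nanopore and 191741714 from Illumina. A single count stood for 2.48 counts per 1000000 (CPM) by Nanopore. A gene listed at 0 may have up to 3 counts, or 7.44 CPM by Nanopore and 0.01565 CPM by Illumina. Illumina levels of different genes are compared after division by the union of annotated exons (transcripts per 1000000, TPM). Direct RNA yields about 1 read per RNA strand, so Nanopore CPM was not divided by length. All 7 basal mammary markers fixed for this work had counts in both libraries. KRT5 was at 1686 CPM by Nanopore and 1447 CPM by Illumina, and KRT14 at 798.5 and 611.3 CPM. Of 7 luminal mammary markers, 5 had Nanopore counts and 6 had Illumina counts. KRT18 was at 280.2 and 321.8 CPM and KRT8 at 389.4 and 209 CPM, while KRT19 had 1 and 88 counts and ELF5 was listed at 0. Of 5 immune markers, PTPRC had 0 and 2 counts and CD3E was listed at 0, while CD68 had 13 and 8643. The 3 erythroid markers were listed at 0, and the 3 endothelial markers had no Nanopore count, although PECAM1 had 973 Illumina counts. Of 6 fibroblast markers, DCN and COL1A2 had Nanopore counts, 10 and 1, and all 6 had Illumina counts, with 5075 for DCN and 946 for COL1A1.

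The regulators were unevenly expressed. KLF5 was the only one at a high level in both libraries, and ESRP1 was next by Illumina, while the GRHL genes and ELF3 were near or at the lower end. Illumina counts were present for 8 of the 10 genes and Nanopore counts for 6. Of all 58735 genes, 27323 had Illumina and 15660 had Nanopore counts. With the Illumina counts thinned at random to the Nanopore total, 5.4 of the 10 regulators were detected on average. GRHL2 and OVOL1 were listed at 0 in both libraries, as were 4230 of 19831 protein-coding genes (21.3%).

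**Figure D1:**
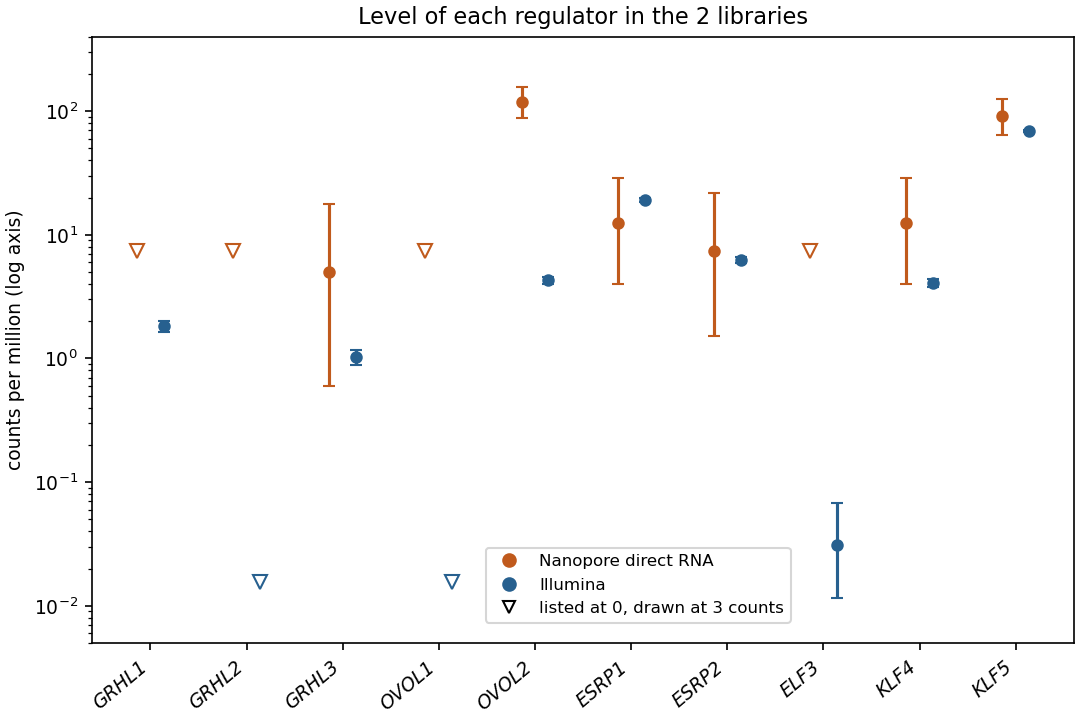
Level of each of the 10 regulators in CPM on a log axis, by Nanopore and by Illumina, 1 library each, with exact 95% Poisson intervals of the count. Open triangles mark genes listed at 0, drawn at 3 counts. KLF5 was high in both libraries, and OVOL2 was at 119 CPM by Nanopore against 4.30 CPM by Illumina.

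GRHL1 (ENSG00000134317, chr2:9951693-10002277, hg38) had 0 Nanopore and 349 Illumina counts, or 1.82 CPM by Illumina (95% exact Poisson interval 1.63 to 2.02). At the Nanopore depth that share corresponds to 0.734 counts, so a count of 0 could not show a difference. GRHL3 (ENSG00000158055, chr1:24199558-24364482) had 2 Nanopore and 197 Illumina counts. The Nanopore level was 4.96 CPM (0.601 to 17.9) and the Illumina level 1.03 CPM (0.889 to 1.18), and the Nanopore interval contains the Illumina value. Divided by length, GRHL3 was at 0.652 TPM (0.564 to 0.750) and GRHL1 at 0.620 TPM (0.557 to 0.689). These intervals overlap, and the 2 genes changed places when mean transcript length was used. About 22% of the 15524 protein-coding genes with an Illumina count were below them, 21.7% for GRHL1 and 22.0% for GRHL3.

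GRHL2 (ENSG00000083307, chr8:101492439-101669726), the grainyhead factor best known from breast epithelium, had no count in either library. Of its neighbours on the chromosome, ZNF706, before it, had 38 Nanopore and 8932 Illumina counts, and NCALD, after it, had only 0 and 27. Whether the 0 of GRHL2, or that of OVOL1 below, reflects the cells or the counting was not tested. The 3 annotated genes that overlap GRHL2 had 55 Illumina counts in all, every one of them in the processed pseudogene ENSG00000253991 on the opposite strand.

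OVOL1 (ENSG00000172818, chr11:65787063-65797214) was also listed at 0 in both libraries, together with its antisense neighbours OVOL1-AS1 and ENSG00000255404. The adjacent protein-coding genes had counts, 3 and 1657 for AP5B1 and 330 and 173570 for CFL1. OVOL2 (ENSG00000125850, chr20:17956979-18059188) was the only regulator with a clear difference between platforms. It had 48 Nanopore counts, 119 CPM (87.8 to 157.8), and 824 Illumina counts, 4.30 CPM (4.01 to 4.60). The ratio of Nanopore to Illumina CPM was 27.7 (exact interval 20.3 to 37.1), or 4.50 on the log2(CPM + 1) scale. The Illumina share corresponds to 1.73 Nanopore counts. The exact binomial test over 12414 genes, with Benjamini-Hochberg adjustment, gave an adjusted p of 9.82e-49.

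One OVOL2 transcript model out of 5 reaches over 102 kb and ends in an exon that lies inside SNX5, a sorting nexin gene on the same strand. The 59 bases that both genes share are shown because reads of either gene can fall on them. In SNX5 these bases are part of an exon of 8 transcript models and are coding in 3 of them.

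OVOL2 and SNX5, minus strand, chr20:17956979-17957037, hg38: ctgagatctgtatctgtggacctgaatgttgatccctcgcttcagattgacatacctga

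These bases are 2.68% of the exonic length of OVOL2. SNX5 (ENSG00000089006) had 55 Nanopore counts, close to the 48 of OVOL2, and 29501 Illumina counts, against 824. SNX5 itself was at 136.4 CPM by Nanopore and 153.9 CPM by Illumina, and the log2 ratio of −0.17 had an adjusted p of 0.536 in the exact test. MGME1, inside the OVOL2 body on the opposite strand, had 15 and 10332 counts and shares no exon bases with it, and the snoRNA gene SNORD17 had 3 and 503. OVOL2 is 1 of 112 tested protein-coding genes that share exon bases on the same strand with a gene at least 10-fold higher by Illumina. Of these 112 genes, 82 (73.2%) were 4-fold higher by Nanopore with an adjusted p under 0.05. Of 250 that share them with such a gene on the opposite strand, 161 (64.4%) were. Among the 10144 that share none with such a gene, on either strand, 261 (2.57%) were. The part of shared reads in the OVOL2 count was not tested, because the tables give no reads. OVOL2 also passed the minimum level for testing through its Nanopore count, since its Illumina level was under 5 CPM. The 112 and 250 genes were picked for an Illumina level far below that of their partner. With the minimum for testing, this favours a higher Nanopore value among them, so their shares and the 2.57% are not like for like.

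**Figure D2:**
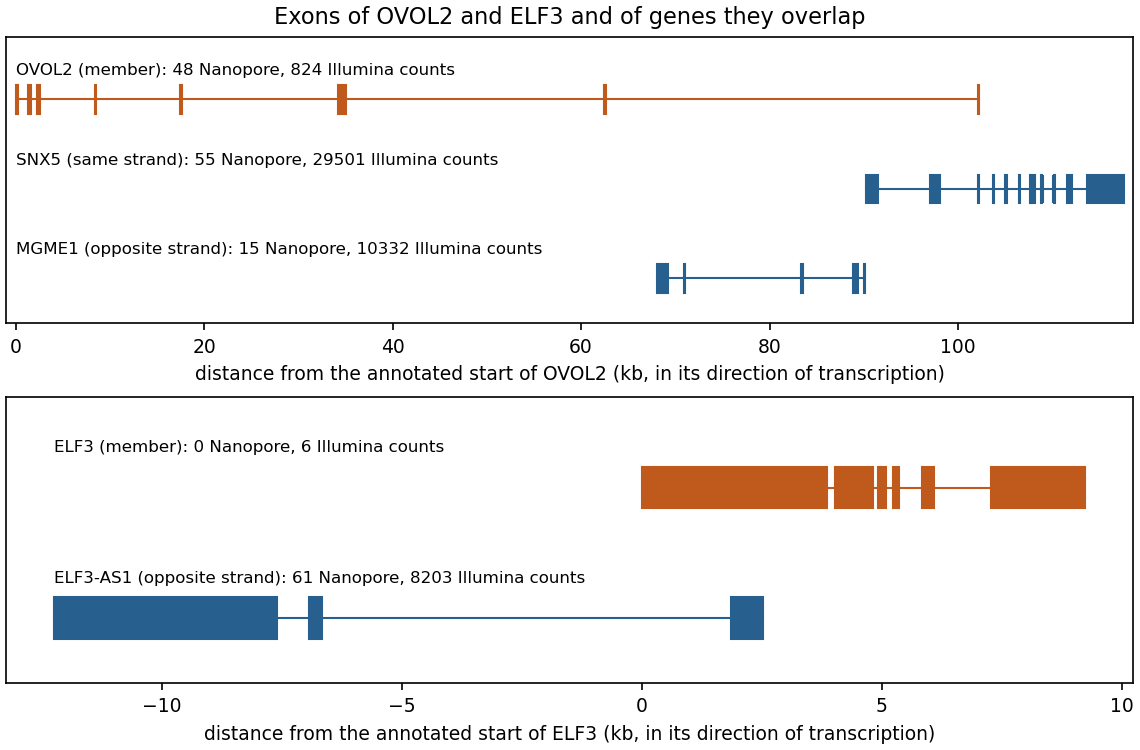
Merged annotated exons (boxes) of OVOL2 and ELF3, in orange, and of genes that overlap them, in blue, by distance in kb from the annotated start of the regulator. The last OVOL2 exon falls on an exon of SNX5, and ELF3-AS1 overlaps the start of ELF3 from the opposite strand, with the counts of each gene printed above it.

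ESRP1 (ENSG00000104413, chr8:94641074-94707466) had 5 Nanopore and 3663 Illumina counts. These stood for 12.4 Nanopore CPM (4.03 to 28.9) and 19.1 Illumina CPM (18.5 to 19.7). ESRP2 (ENSG00000103067, chr16:68229033-68238102) had 3 and 1199 counts, or 7.44 CPM (1.53 to 21.7) and 6.25 CPM (5.90 to 6.62). In both genes the Nanopore interval contains the Illumina level. The exact binomial adjusted p was 0.566 for ESRP1 and 0.992 for ESRP2, and the interval of the ratio was wide, 0.211 to 1.52 for ESRP1 and 0.245 to 3.48 for ESRP2. By Illumina, where counts were ample, ESRP1 exceeded ESRP2 per length, at 10.6 TPM (10.27 to 10.96) against 3.26 TPM (3.08 to 3.45). By Nanopore the intervals of the 2 genes overlapped. The last exons of ESRP2 share 227 bases with NFATC3 on the opposite strand and 113 with the lncRNA gene ENSG00000262160 on the same strand. All 3 genes had 3 Nanopore counts, against 1199, 8574 and 6249 Illumina counts, and whether they are the same reads was not tested.

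ELF3 (ENSG00000163435, chr1:202007945-202017183) had 0 Nanopore and 6 Illumina counts, the lowest Illumina level of the 8 detected regulators at 0.0313 CPM (0.0115 to 0.0681). Its antisense neighbour was far from silent. ELF3-AS1 (ENSG00000234678), a lncRNA gene on the other strand, had 61 Nanopore and 8203 Illumina counts, 151.3 and 42.8 CPM. The log2 ratio of 1.80 had an adjusted p of 5.86e-15 in the exact test. In GENCODE the exons of the 2 genes share 664 bases. Whether these bases affect the count of either gene was not tested. In RefSeq (GRCh38.p14) the start sites of ELF3 and ELF3-AS1 lie on opposite strands with 233 bases between them, so 267 bases of their promoter windows are in common. The GENCODE gene body of ELF3 begins further upstream, and the shared exon bases lie before the RefSeq start of ELF3, at base 202010587. Per length the antisense gene was at 20.8 TPM by Illumina and ELF3 at 0.0118 TPM.

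The RefSeq promoter table (250 bases before to 50 after a start) has windows for GRHL1, GRHL3, ELF3, KLF4 and KLF5, and for ELF3-AS1. GRHL2, OVOL1, OVOL2, ESRP1 and ESRP2 were not matched. The E-box CAGGTG, the word that Snail-type zinc fingers are known to bind, was searched on both strands (CACCTG on the other), without regard to overlap with other motifs. It occurs in 7231 of 35116 promoters of that length (20.6%). It was present at the first of 2 GRHL3 starts and at ELF3, and these letters were not in the windows of GRHL1, KLF4 or either KLF5 start. The matches are shown with the E-box in capitals and 12 bases on each side, 5′ to 3′ on the strand of the named gene.

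GRHL3, 21 bases upstream of the start, plus strand, chr1:24319324-24319353: agttaacagctgCACCTGttgaggtatacc
GRHL3, at base 10 after the start, plus strand, chr1:24319354-24319383: tccagtcgccggCACCTGtacctgtagcca
ELF3, 120 bases upstream of the start, plus strand, chr1:202010455-202010484: gaatatgcaaatCACCTGgggccaggagcc
ELF3-AS1, at base 20 after the start, minus strand, chr1:202010317-202010346: cactggcctgggCAGGTGgcgggaacgttg

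The ELF3 match also lies in the shared part of the ELF3-AS1 window. The grainyhead consensus AACCGGTT, its own reverse complement, was in none of these windows and is in 47 of the 35116 promoters (0.134%). A match or its lack describes the letters in these windows and says nothing about binding.

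KLF5 (ENSG00000102554, chr13:73054976-73077541), a factor of proliferating basal epithelium, had 37 Nanopore and 13175 Illumina counts. These stood for 91.8 Nanopore CPM (64.6 to 126.5) and 68.7 Illumina CPM (67.5 to 69.9), where 27.7 Nanopore counts would match the Illumina share. KLF5 overlaps no other annotated gene. The ratio was 1.34 (exact interval 0.940 to 1.84), with an exact binomial adjusted p of 0.179. KLF4 (ENSG00000136826, chr9:107484852-107490482), known as a factor of differentiating epithelium, had 5 and 781 counts, or 12.4 Nanopore CPM (4.03 to 28.9) and 4.07 Illumina CPM (3.79 to 4.37). Its ratio was 3.04 (0.986 to 7.13), with an exact binomial adjusted p of 0.0991. With Illumina TPM in place of CPM, both genes were higher by Nanopore. The log2 ratios were then 0.85 for KLF5 (exact binomial adjusted p 0.00376) and 1.74 for KLF4 (0.038), on a scale where the median of all tested genes was 0.40. KLF4, like OVOL2, reached the minimum for testing through its Nanopore level alone, which favours a higher Nanopore value.

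In the order of Illumina TPM, KLF5 came first at 50.6 TPM (49.7 to 51.5), above 86.3% of protein-coding genes with an Illumina count. ESRP1 followed at 10.6 TPM, above 56.4% of them. OVOL2 was at 5.28 TPM (4.93 to 5.66), ESRP2 at 3.26 TPM and KLF4 at 3.01 TPM (2.81 to 3.23). GRHL3, GRHL1 and ELF3 came last. Among neighbours in this order, the intervals of ESRP2 and KLF4 overlapped, as did those of GRHL3 and GRHL1. By Nanopore the order was OVOL2, KLF5, then KLF4 and ESRP1 with 5 counts each, ESRP2 and GRHL3, and only the step from KLF5 to the next genes had intervals apart. In both orders the place of OVOL2 rests on counts whose part of reads shared with SNX5 was not tested.

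Detection by Nanopore was also set beside protein-coding genes within 1.5-fold of the same Illumina CPM. Of 763 such genes around GRHL1, 53.1% had a Nanopore count, and of 638 around GRHL3, 46.2% did. The shares were 72.7% around OVOL2, 71.3% around KLF4, 81.1% around ESRP2, 96.5% around ESRP1, 99.7% around KLF5 and 6.46% around ELF3. The median count of the 2421 genes around KLF5 was 15, against 37 for KLF5. The 1135 genes around OVOL2 had a median of 1, against 48 for OVOL2, whose part of shared reads was not tested.

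There were 5 regulators (OVOL2, ESRP1, ESRP2, KLF4 and KLF5) that reached the mean of 5 CPM needed for testing. One of the 5, OVOL2, was called higher by Nanopore, meaning an adjusted p under 0.05 and a difference of at least 4-fold. Among all 12414 tested genes, 12.9% were called in that direction. None of the 5 was called higher by Illumina, where the background was 7.31%. At an adjusted p alone, 20.2% of all tested genes had a higher Nanopore share and 27.2% a higher Illumina share, and by a difference of 2-fold or more 19.2% and 30.2% did. The 5 regulators had a median log2 ratio of 0.41, with 4 above 0, beside −0.42 for all tested genes and −0.58 for the 10498 protein-coding ones. OVOL2 and KLF4 entered this median and count only through the library in which they were high, so neither is support for a direction. With OVOL2 and the other regulators that share exon bases set aside, a choice made after the data were seen, ESRP1 and KLF5 remained, with a median of −0.09. All 4900 genes without shared exon bases had a median of −0.67.

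**Figure D3:**
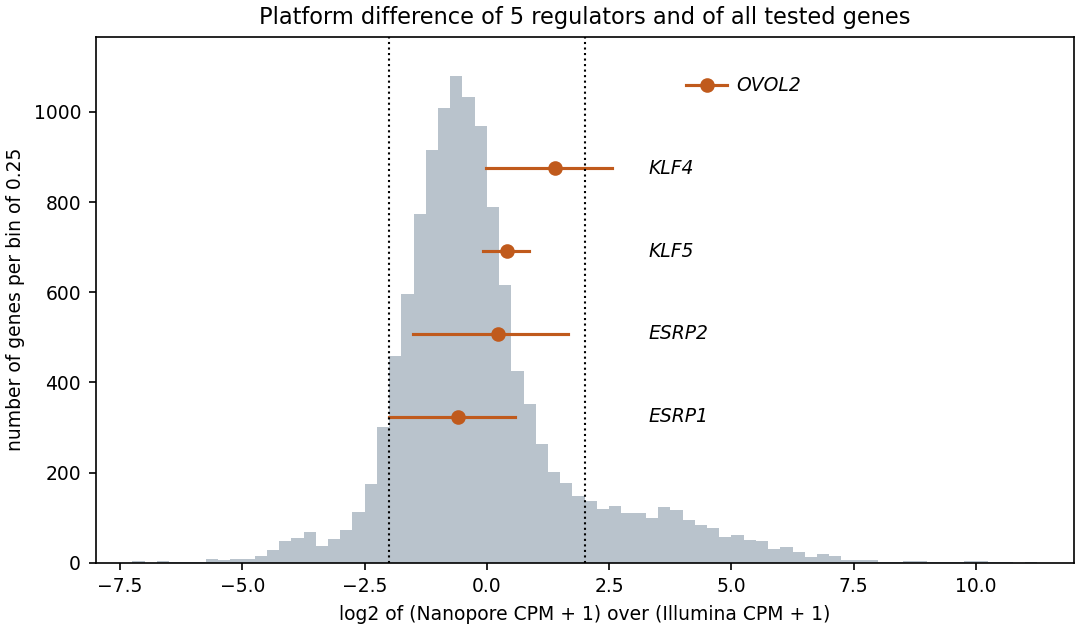
Number of tested genes by log2 of the Nanopore over the Illumina level, each as CPM + 1, in bins of 0.25 (grey), with the 5 tested regulators in orange. Bars span the exact 95% Poisson interval of the Nanopore count, and dotted lines mark 4-fold. OVOL2 lies at 4.50, beyond the line, and the other 4 regulators lie between −0.59 and 1.40.

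The families around these genes were then described, from lists chosen by known function. Among all tested genes, 12.9% were called higher by Nanopore and 7.31% by Illumina. By adjusted p alone the shares were 20.2% and 27.2%. Against these shares, counts of calls in such short lists are not read as results about a family. Among 17 KLF genes, 16 had Illumina and 13 had Nanopore counts. KLF6, a widely expressed Krüppel-like factor, was highest at 65.4 TPM by Illumina and 153.8 CPM by Nanopore. KLF5 was second in both libraries, and KLF16 followed by Illumina at 46.9 TPM. KLF4 was in 11th place by Illumina. Of 11 tested KLF genes none was called higher by Nanopore and 2 were called higher by Illumina. KLF13 had 1 Nanopore and 14093 Illumina counts (log2 ratio −4.42, exact binomial adjusted p 6.94e-11). KLF12 had 0 and 3430 counts (−4.24, adjusted p 0.00444), and after division by union exonic length its mean level was too low for testing. Both genes reached the minimum for testing only through their Illumina level.

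**Figure D4:**
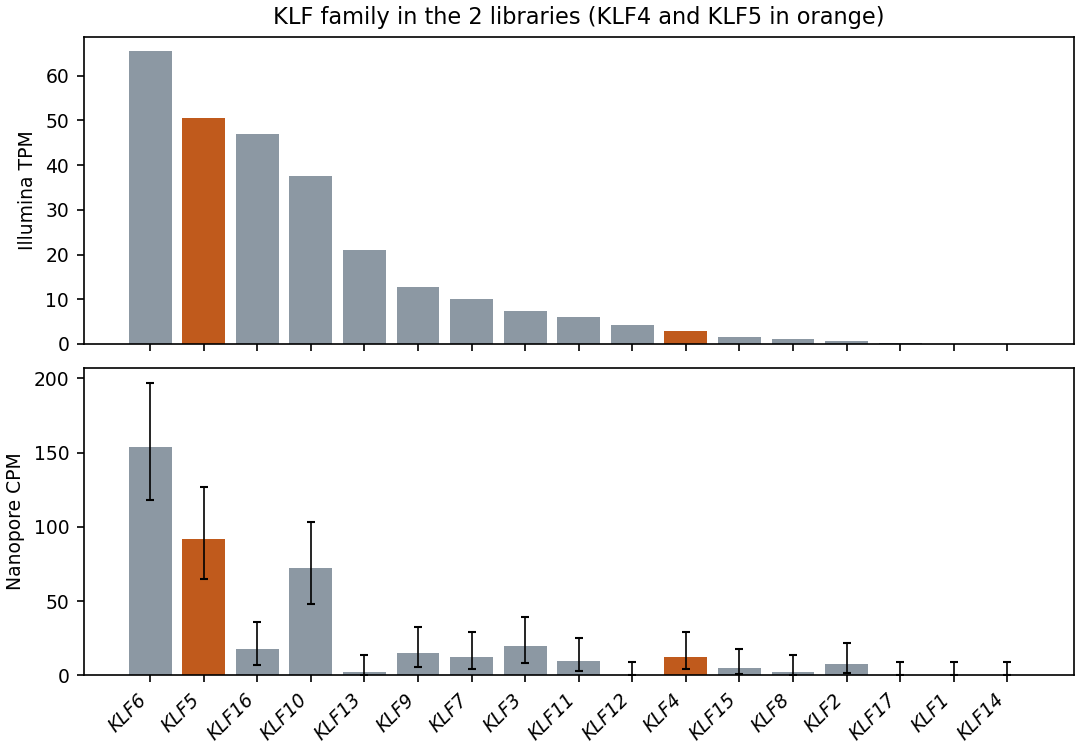
Illumina TPM (top) and Nanopore CPM with exact 95% Poisson intervals (bottom) of 17 KLF genes, in the order of Illumina TPM, with KLF4 and KLF5 in orange. KLF5 is second in both panels, and KLF13 has 1 Nanopore count beside 21.1 TPM by Illumina.

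In the grainyhead family the abundant members were those of the CP2 branch. TFCP2L1 was at 44.1 TPM by Illumina, TFCP2 at 25.7 TPM and UBP1 at 24.2 TPM, each far above GRHL1 and GRHL3. All 3 were tested and had an adjusted p under 0.05 with a higher share by Illumina, and TFCP2 was also called at 4-fold (3 and 7598 counts, log2 ratio −2.27, exact binomial adjusted p 6.88e-04), though not with Illumina TPM, where its log2 ratio was −1.66. The 3 log2 ratios had a median of −1.29, which was 0.48 with TPM by union exonic length and −0.53 by mean transcript length. Among the 9 ELF and other ETS genes, ELF1 (31.6 TPM), ETS1 (28.5 TPM) and ETS2 (25.4 TPM) were highest. Besides ELF3, the epithelial ETS genes were nearly empty: EHF had 2 Nanopore and 13 Illumina counts, and ELF5 and SPDEF were listed at 0. ETS1 was called higher by Illumina (5 and 14417 counts, log2 ratio −2.51, exact binomial adjusted p 2.16e-07), but not after division by length, where the log2 ratio was −1.14 by union exonic length.

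ESRP1 and ESRP2 were also set beside 14 other splicing regulators. HNRNPM (184.8 TPM), KHDRBS1 (181.3 TPM) and SRSF1 (165.3 TPM) were highest by Illumina. RBFOX2 and QKI, which are known to act in mesenchymal splicing, were at 29.5 and 14.2 TPM, both above ESRP1, and RBM47, known from epithelia, was at 2.45 TPM with no Nanopore count. MBNL3 (3.16 TPM), PTBP2 (1.64 TPM), KHDRBS3 (1.11 TPM) and CELF2 (0.00256 TPM) were, like RBM47, below ESRP1, and the rest of the 14 were above it. RBFOX2 had 154 Nanopore counts, 381.9 CPM, against 134.7 CPM by Illumina (log2 ratio 1.5, exact binomial adjusted p 8.37e-27), and with Illumina TPM the log2 ratio was 3.65, past 4-fold. CELF1 was called higher by Illumina (10 and 32258 counts, log2 ratio −2.71, exact binomial adjusted p 5.76e-17), and still so by mean transcript length (−2.09), but not by union exonic length (−0.78, adjusted p 0.150). Of 13 tested genes on this list, 1 had an adjusted p under 0.05 higher by Nanopore and 5 higher by Illumina. Among all tested genes the shares were 20.2% and 27.2%. This direction depended on length. After division by union exonic length, 5 of 12 tested were higher by Nanopore and 0 by Illumina, with a median log2 ratio of 0.79. By mean transcript length, 4 of 13 were higher by Nanopore and 3 by Illumina, with a median of 0.44. The 8 genes known to have ESRP-regulated exons all had counts in both libraries. The highest were CD44 (79 and 80739 counts, 114.1 TPM), SLK (37.1 TPM) and ENAH (28.8 TPM), while FGFR2 had 1 and 1268 counts. All 7 that were tested had a lower Nanopore share with an adjusted p under 0.05, beside 27.2% of all tested genes. ARHGEF11 was called at 4-fold (log2 ratio −2.07, exact binomial adjusted p 1.11e-04), though at −0.34 with Illumina TPM it was not. The median log2 ratio of the 7 genes, −1.19, became 0.73 after division by union exonic length, with 4 then higher by Nanopore. By mean transcript length it was −0.05, with 2 higher by Nanopore and 1 by Illumina. The tables count whole genes, so exon use was not measured.

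Of 12 transcription factors listed for their part in EMT, 11 had Illumina counts and 7 had Nanopore counts. SNAI1, which the construct also encodes, had 286 Nanopore and 164973 Illumina counts, at 1367 TPM by Illumina. TWIST2 (25.7 TPM), TCF3 (25.4 TPM), TWIST1 (18.2 TPM) and FOXC2 (15.1 TPM) were above every regulator but KLF5. SNAI2 was below ESRP1, at 6.77 TPM with no Nanopore count. ZEB1, the known target of OVOL repression, was at 1.25 TPM with 2 Nanopore counts, and ZEB2 at 0.808 TPM with none. Of 6 tested factors on this list none was called at 4-fold in either direction, beside 12.9% and 7.31% of all tested genes. Among 10 genes bound or controlled by GRHL factors, CDH3 (59.2 TPM), MAL2 (32.7 TPM) and CDH1 (10.8 TPM) were highest. CLDN4 had 19 Illumina counts and RAB25 had 56, both without a Nanopore count, and CLDN3 and DSG1 were listed at 0. None of the 5 tested genes on this list was called, beside 12.9% and 7.31% of all tested genes. Among 10 other epithelial factors CEBPB (121.9 TPM) and TFAP2A (20.1 TPM) were among the highest, and none of 8 tested was called, although CEBPB was higher by Nanopore (log2 ratio 1.45, exact binomial adjusted p 1.39e-15) and past 4-fold by mean transcript length (2.06). RBFOX2, QKI, RBM47, MBNL3, PTBP2, KHDRBS3, CELF2, EHF, TWIST1, FOXC2, SNAI2, ELF5, SPDEF, FGFR2, ZEB1, ZEB2, CLDN4, RAB25, CLDN3 and DSG1 were named after their values were seen.

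**Figure D5:**
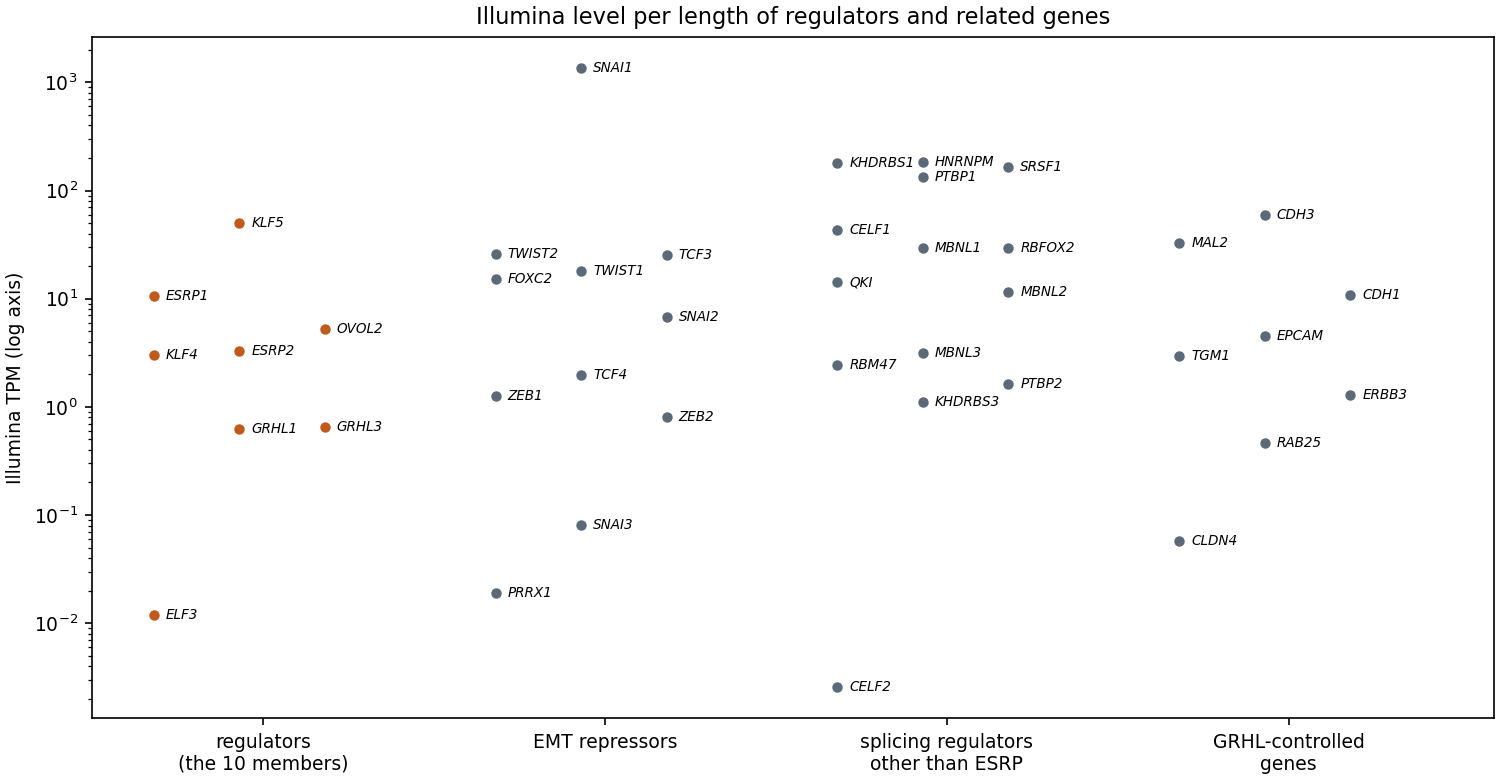
Illumina TPM on a log axis of the regulators (orange) and of 3 related lists (grey), for genes with at least 1 Illumina count. KLF5 at 50.6 TPM stands above the other regulators, and ELF3 at 0.0118 TPM below them.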

How the data were processed

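The deposited tables hold whole-number counts per Ensembl gene, without normalization, made by the authors from 1 Nanopore and 1 Illumina library. Per the submitters' processing notes, minimap2 2.11-r797, HISAT2 2.1.0, featureCounts and hg38 were used. The annotation release, the strand setting and the treatment of reads that overlap several genes are not given in the sources used here. The Nanopore column name has a suffix that no label explains. If it marks correction with short reads, the libraries are not independent. CPM used library totals, and ratios used a pseudocount of 1 CPM. With 1 library per platform no model of spread could be fitted, so counts were compared by a two-sided exact conditional binomial test. It covered every gene whose 2 levels averaged 5 CPM or more, and p-values were adjusted over all of them (Benjamini-Hochberg). It was tested on simulated data. Calls needed an adjusted p under 0.05 and 4-fold. Intervals are exact at 95%. Amplified reads are not independent molecules, so they cover counting error only. Of the 58735 identifiers, 58207 were in GENCODE release 44. Exon overlaps used bedtools 2.31.1, and TMM factors edgeR 4.0.16. The members and lists were chosen with earlier results of these data known. From each list the 3 genes highest by Illumina TPM and every called gene were named, as were genes with counts that overlap a regulator, except 1 gene that is not reported here. No likeness of pattern to other genes was measured, since 2 libraries give a single difference.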

Additional observations from a re-analysis of the deposited data

How the results depend on the processing

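No paired analysis was possible because each platform has 1 library, and no library could be left out. With a minimum of 10 counts, 2 of the 10 regulators were detected by Nanopore in place of 6. OVOL2 was called higher by Nanopore under each alternative that kept it in the test, with log2 ratios from 3.74 to 4.76. When the test was limited to genes overlapping no other, and to genes that share no exon bases with another (added after seeing the data), OVOL2 was not tested and the number of regulators called was 0. The median log2 ratio of the tested regulators became 0.99 with Illumina TPM by union exonic length, where the median of all tested genes moved from −0.42 to 0.40. With a mean of at least 20 CPM it became 2.46, over 2 regulators. ESRP1, not past the threshold in any setting, changed sign under division by length, to 0.21 (union exonic length) and 0.27 (mean transcript length). KLF5 passed the threshold with protein-coding totals (log2 ratio 0.62, exact binomial adjusted p 0.0408) and with both lengths. KLF4 passed it with both lengths, on 5 Nanopore counts. Its log2 ratio was 1.74 by union exonic length (exact binomial adjusted p 0.038) and 1.93 by mean transcript length (0.0221). The order of regulators by Illumina kept 27 of 28 pairs with mean transcript length and 26 without division by length. At 5 or fewer Nanopore counts, KLF4, ESRP1, ESRP2 and GRHL3 had wide intervals of the ratio.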
